A study of Mus musculus with 58 samples.

Results

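The transcripts described here are 8 genes at the output end of canonical Wnt signalling, read in the prefrontal cortex of young mice. They are 3 transcription factors of the TCF/LEF family (Tcf7l1, Tcf7l2 and Lef1), 4 feedback inhibitors that the pathway itself induces (Axin2, Nkd1, Rnf43 and Znrf3) and the cell cycle gene Ccnd1. They were taken by gene symbol from a table of 18088 genes, all 8 were found, and all 8 passed the minimum for testing. RNA was sequenced from C57BL/6J mice carrying a knock-in Tbl1xr1 allele on 1 chromosome (HT) and from wild-type mice (WT), at postnatal day 25. Lithium, fluoxetine or vehicle had been given through the mother's milk from day 3 to day 24. The HT groups under lithium, fluoxetine and vehicle each held 5 female and 5 male libraries, as did the WT fluoxetine and WT vehicle groups, and the WT lithium group held 4 of each sex, which makes 58 libraries in 12 groups. The sources used here do not describe the knock-in change itself. They name no dam or litter, so litter and drug cannot be told apart. Nor do they say whether the libraries of a group came from different animals. The p-values below set a difference between groups only against the spread among libraries within groups.

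In canonical Wnt signalling a ligand binds a Frizzled receptor with an LRP coreceptor, beta-catenin escapes the destruction complex, and it joins TCF/LEF proteins on DNA to switch on target genes. Without beta-catenin the same factors can hold genes silent through corepressors, and the induced inhibitors damp the signal: Axin2 rebuilds the destruction complex, Nkd1 binds Dishevelled, and the membrane ubiquitin ligases Rnf43 and Znrf3 remove Frizzled from the cell surface. Lithium inhibits GSK3, the kinase that marks beta-catenin for destruction. TBL1XR1 belongs to the corepressor complexes built on NCoR and SMRT and has been linked to beta-catenin at Wnt target genes. In the brain the pathway is known for upholding the blood-brain barrier in endothelial cells, and Tcf7l2 for its part in maturing oligodendrocytes and in thalamic neurons.

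The libraries held between 22.9 M and 35.01 M reads, with a median of 26.7 M. Values below are normalised read counts: reads divided by 1 size factor per library. A difference is given on the log2 scale with its standard error (SE), after adding 1 to each value, and a gene is called, or said to rise or fall, where its p from limma, adjusted over all 16606 genes tested, is under 0.05. Tbl1xr1 was higher in HT than in WT libraries by 0.29 ± 0.020 on the log2 scale, in 30 of 30 HT libraries against the WT mean of the same sex and drug (limma adjusted p = 1.57e-15), with 2276 to 2747 normalised reads in HT and 1817 to 2279 in WT. Cortical markers were present, with mean normalised read counts of 3009 for Cux2 and 3292 for Tbr1. Tissue beside the cortex varied between libraries. Summed counts of 12 striatal neuron markers ran between 6579 and 25416, those of 10 olfactory bulb markers between 6487 and 32537, and 2 libraries, HT lithium male 1 and WT vehicle female 4, were rich in choroid plexus genes. In bulk tissue fewer cells of a type and less RNA per cell cannot be told apart.

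Promoter windows of the RefSeq tables on GRCm38.p6, each 250 bases before to 50 after an annotated start on the gene's strand, were available for 6 of the genes, in 11 windows. They were searched on both strands for the core words that TCF/LEF factors prefer, CTTTGAA or CTTTGAT or CTTTGTA or CTTTGTT, of which no 2 can begin at the same base of a strand. A word stood in 2 of the 11 windows, or 18.2%, against 16.9% of all 32851 windows in the table. Shown first is Axin2, the target most often used to read the pathway, which holds none of the words in this window, and then both windows with a word, in capitals. The Lef1 window lies at an internal start of the gene and carries CTTTGTA on the opposite strand, beginning 147 bases before the start. The Tcf7l2 window also lies at an internal start and carries CTTTGTT on the gene's strand, 14 bases before it. A match is a description of letters and not a binding site.
Axin2 chr11:108920099-108920398 (+): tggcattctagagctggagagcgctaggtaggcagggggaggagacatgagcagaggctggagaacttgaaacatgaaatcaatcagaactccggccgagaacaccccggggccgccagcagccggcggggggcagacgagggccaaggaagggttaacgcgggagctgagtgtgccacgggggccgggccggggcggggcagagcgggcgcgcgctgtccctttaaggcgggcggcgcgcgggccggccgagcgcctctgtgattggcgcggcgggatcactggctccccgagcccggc
Lef1 chr3:131156044-131156343 (+): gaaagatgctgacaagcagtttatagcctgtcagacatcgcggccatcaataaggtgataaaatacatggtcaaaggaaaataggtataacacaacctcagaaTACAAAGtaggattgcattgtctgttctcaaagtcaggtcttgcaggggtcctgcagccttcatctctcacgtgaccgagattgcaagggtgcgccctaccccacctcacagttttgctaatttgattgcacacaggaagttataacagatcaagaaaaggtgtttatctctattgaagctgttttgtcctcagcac
Tcf7l2 chr19:55895071-55895370 (+): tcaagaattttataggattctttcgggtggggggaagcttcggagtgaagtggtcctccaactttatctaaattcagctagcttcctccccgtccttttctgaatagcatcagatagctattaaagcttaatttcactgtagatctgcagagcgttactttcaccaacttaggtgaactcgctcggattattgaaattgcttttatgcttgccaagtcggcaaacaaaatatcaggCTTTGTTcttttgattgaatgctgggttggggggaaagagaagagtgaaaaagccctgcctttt

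The genes lay at very different levels. Per kilobase of exon, averaged over all 58 libraries, Ccnd1 (ENSMUSG00000070348, chr7:144929931-144939925, minus strand), which encodes cyclin D1, stood at 296 ± 34.04 normalised reads (SD). Axin2 (ENSMUSG00000000142, chr11:108920349-108950783, plus strand) followed with 137 ± 10.8 and Nkd1 (ENSMUSG00000031661, chr8:88521354-88594884, plus strand) with 117 ± 16.8. Cyclin D1 was above Axin2 in 58 of 58 libraries, and Axin2 above Nkd1 in 51 of 58. Znrf3 (ENSMUSG00000041961, chr11:5276324-5444847, minus strand) reached 62.0 ± 3.58 per kilobase, and its partner ligase Rnf43 (ENSMUSG00000034177, chr11:87662722-87735539, plus strand) was the lowest, between 5.9 and 13.7 with an SD of 1.76. The transcription factors lay between the 2 ligases: Tcf7l1 (ENSMUSG00000055799, chr6:72626378-72789254, minus strand), which acts mostly as a repressor, had 24.3 ± 4.05, Lef1 (ENSMUSG00000027985, chr3:131110471-131224356, plus strand), mostly an activator, had 15.9 ± 3.03, and Tcf7l2 (ENSMUSG00000024985, chr19:55741820-55933654, plus strand) had 13.8 ± 3.14. Lef1 exceeded Tcf7l2 in only 39 of 58 libraries. When the length of the longest transcript was used in place of all exons, these 3 changed order, with Lef1 at 38.3 ± 7.28, Tcf7l2 at 32.7 ± 7.42 and Tcf7l1 at 31.3 ± 5.22 per kilobase. They are therefore not ranked among themselves, while Ccnd1, Axin2, Nkd1, Znrf3 and Rnf43 kept their ranks under both lengths.

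**Figure D1:**
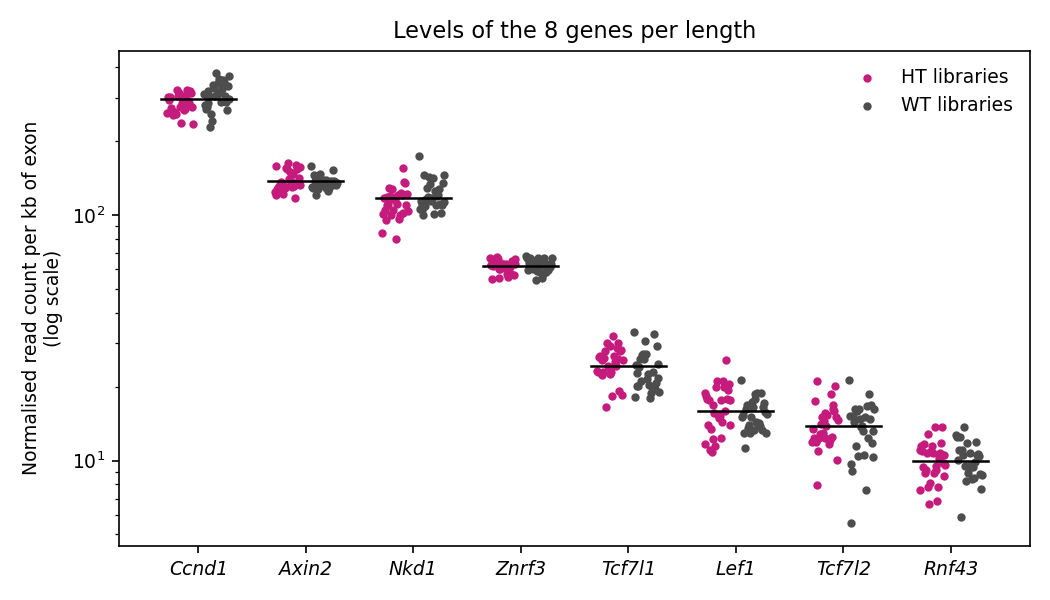
Normalised read count per kilobase of exon (log axis) of each gene in the 30 HT libraries (left, pink) and the 28 WT libraries (right, grey), 1 point per library, with the mean of all 58 as a bar. Ccnd1 averages 296 per kilobase, Rnf43 stays between 5.9 and 13.7, and the clouds of the 3 transcription factors overlap.

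The genes also differed in how steady they were among libraries of 1 group. The mean SD within groups was 5.0% of the mean for Znrf3, 7.2% for Axin2 and 8.4% for Ccnd1. It was 13.4% for Nkd1, 15.3% for Tcf7l1, 16.6% for Lef1, 16.9% for Rnf43 and 21.8% for Tcf7l2, the most variable of them. Rnf43 rested on 33 to 101 reads per library and Tcf7l2 on 49 to 188, so counting error takes a larger share of their spread than of that of Ccnd1, which had at least 985 reads. Znrf3 had 358 to 613 reads, and with an SD of only 5.0% counting error can also make up much of its spread. The 12 group means stayed within 458 to 519 normalised reads for Znrf3 and within 710 to 794 for Axin2.

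The lithium groups ask whether exposure to a GSK3 inhibitor moved the transcripts that a rise in beta-catenin signalling would be read by. None of the 8 genes was called. Pooled over both genotypes and sexes with equal weight, 0 of 8 passed limma's test at an adjusted p of 0.05, while 2.67% of the 16606 genes tested did. The count was also 0 of 8 with edgeR and with DESeq2, and 0 of 8 had an unadjusted limma p under 0.05, against 16.9% of all genes. The log2 changes of the 8 lay between -0.067 and 0.021 with a median of -0.020, and the median of all genes was -0.001.

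Axin2, the most used readout of the pathway, lay at nearly the same mean with lithium and without it, 765.9 ± 54.8 (SD, n = 18) against 761.3 ± 59.8 normalised reads (SD, n = 20). In HT females it had 723.2, 717.6, 710.3, 859.5 and 844.8 normalised reads under lithium, against 748.4, 810.0, 719.9, 645.0 and 877.8 under vehicle. In HT males the values were 895.4, 768.1, 824.2, 743.6 and 718.7 under lithium and 850.3, 743.3, 781.9, 862.5 and 731.8 under vehicle. The HT groups overlapped over most of their range in both sexes. In WT females lithium libraries had 762.1, 764.7, 766.0 and 728.5 and vehicle libraries 688.0, 711.7, 746.4, 753.8 and 732.1. In WT males they had 725.9, 763.7, 711.8 and 758.2 under lithium and 841.0, 758.7, 751.1, 729.9 and 741.7 under vehicle. WT lithium was the tightest of the pooled groups, between 711.8 and 766.0. The change over both genotypes was 0.006 ± 0.036 on the log2 scale (limma adjusted p = 0.96), with a 95% interval of -0.067 to 0.080, or 0.955-fold to 1.057-fold. Of the 18 lithium libraries 8 lay above and 10 below the vehicle mean of the same sex and genotype.

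**Figure D2:**
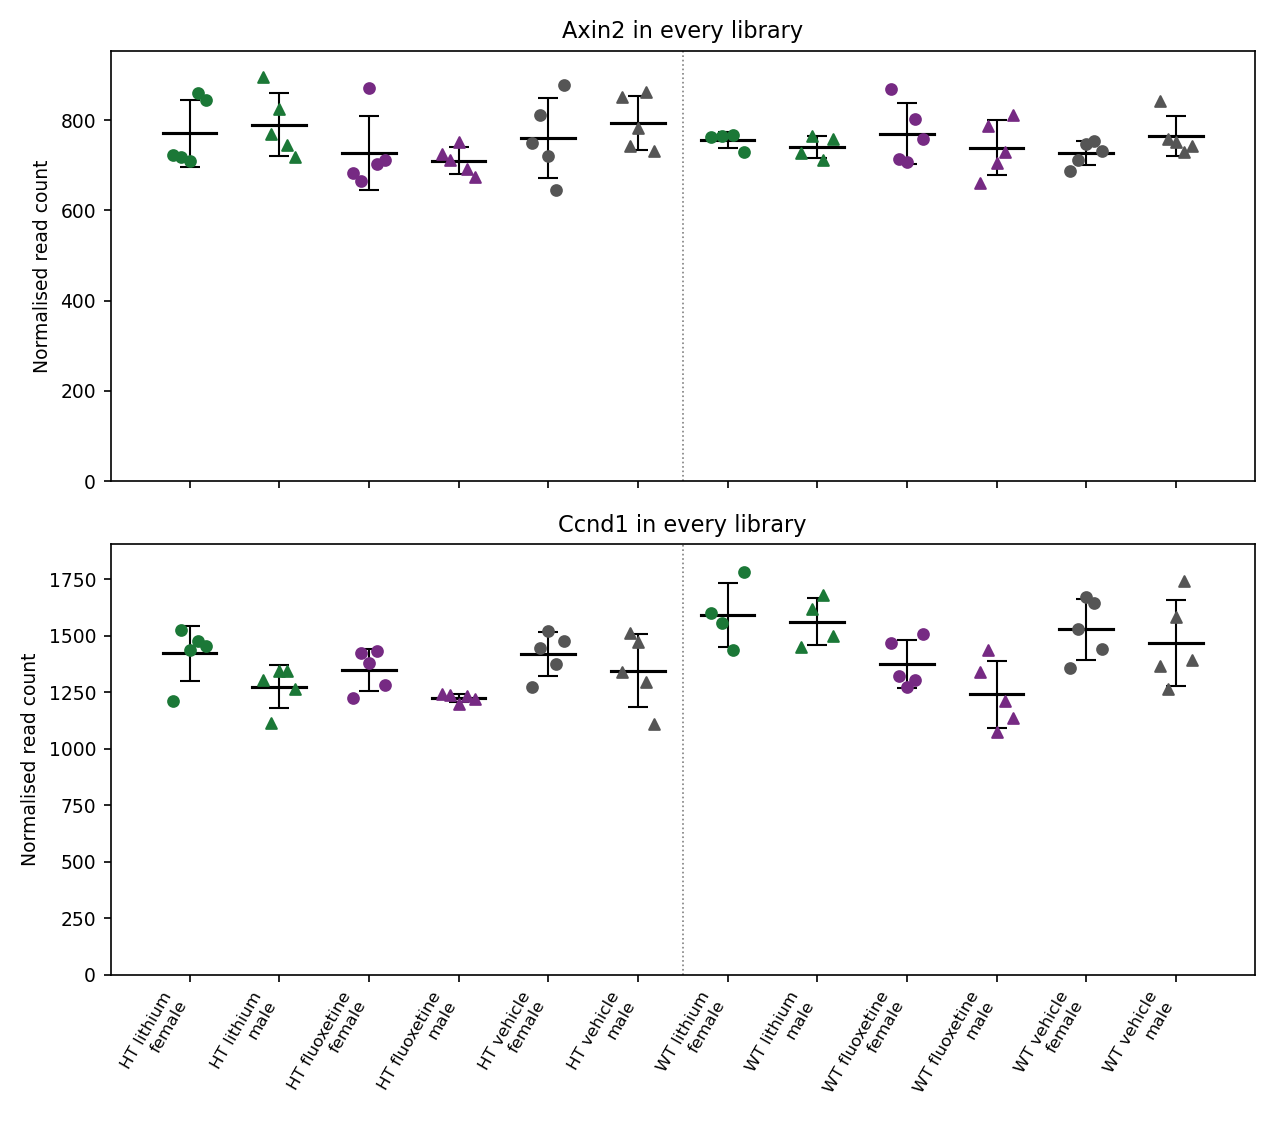
Normalised read count of Axin2 (top) and Ccnd1 (bottom) in every library by genotype, drug and sex (circles female, triangles male, green lithium, purple fluoxetine, grey vehicle), with the group mean and SD as bars. Axin2 group means stay between 710 and 794, and Ccnd1 runs from 1225 in HT fluoxetine males to 1592 in WT lithium females.

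The other induced genes gave intervals of differing width. Znrf3 had 430.3 to 526.8 normalised reads with a median of 483.5 under lithium and 442.0 to 527.6 with a median of 482.8 under vehicle, a log2 change of -0.012 with a 95% interval of -0.065 to 0.042. Ccnd1 averaged 1449 ± 168 under lithium and 1440 ± 153 under vehicle, a change of 0.021 with an interval of -0.063 to 0.10. For Nkd1 the change was -0.045 (-0.17 to 0.082) and for Rnf43 -0.028 (-0.20 to 0.14). Among the transcription factors, Tcf7l1 changed by 0.016 (-0.14 to 0.17), Tcf7l2 by -0.067 (-0.30 to 0.17) and Lef1 by -0.050 (-0.21 to 0.11). Changes of Axin2, Znrf3 and Ccnd1 beyond 0.11 in either direction fell outside these intervals, whereas for Tcf7l2 a change of -0.30 did not. Within each genotype the count was again 0 of 8 with limma, edgeR and DESeq2, where limma called 0.385% of genes in HT and 0.0301% in WT, and 0 of 8 had an unadjusted p under 0.05, against 12.2% of all genes in HT and 9.38% in WT.

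The mean over genotypes covered opposite signs for 5 of the 8 genes, with the widest gaps for Lef1 and Nkd1. Lef1 had 148.1, 137.1, 100.6, 174.5 and 185.4 normalised reads in HT lithium females, against 126.0, 184.4, 175.0, 139.3 and 224.8 in HT vehicle females. It had 134.3, 130.7, 133.8, 155.1 and 108.3 in HT lithium males, against 156.8, 170.3, 179.7, 154.9 and 122.3 in HT vehicle males. In HT 8 of 10 lithium libraries lay below the vehicle mean of their sex, the ranges overlapped, and the change was -0.21 ± 0.11 (limma adjusted p = 0.437). In WT 6 of 8 lay above it and the change was 0.11 ± 0.12 (adjusted p = 0.849). The difference between the genotypes, HT minus WT, was -0.33 ± 0.16 (adjusted p = 0.998). Nkd1 was lower in 9 of 10 HT lithium libraries, by 0.15 ± 0.087 (adjusted p = 0.511), and higher in 5 of 8 WT lithium libraries, by 0.057 ± 0.092 (adjusted p = 0.922), a difference of -0.20 ± 0.13 (adjusted p = 0.998).

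Other Wnt pathway genes were called under lithium, foremost Ctnnb1, which encodes beta-catenin itself. Ctnnb1 had 14232 to 16787 normalised reads with a median of 15418 in HT lithium libraries, against 16568 to 21544 with a median of 18205 in HT vehicle libraries. In WT it had 14728 to 17363 with a median of 15989 under lithium, against 17371 to 19514 with a median of 17856 under vehicle. The ranges overlapped slightly in HT and not in WT. It fell by 0.26 ± 0.037 on the log2 scale in HT (limma adjusted p = 6.39e-05), by 0.19 ± 0.039 in WT (adjusted p = 0.0374) and by 0.23 ± 0.027 over both (adjusted p = 4.49e-07), in 18 of 18 libraries. The call over both held without each single library and was lost in females alone (-0.21, adjusted p = 0.0531). That in HT was lost in females alone (adjusted p = 0.209) and in males alone (0.111). That in WT was lost in females alone (0.779), in males alone (0.697), with only the groups of the comparison in the fit (0.157) and without the libraries rich in choroid plexus (0.0833) or striatal (0.0728) markers. It was also lost, with adjusted p between 0.0552 and 0.127, without any of 12 of the 18 libraries, namely WT lithium females 1 and 2, males 1, 2 and 4, and WT vehicle females 1, 2, 4 and 5 and males 1, 4 and 5. Apc, the scaffold of the destruction complex, fell by 0.20 ± 0.051 over both genotypes (adjusted p = 0.0255), in 17 of 18 libraries. That call was lost without WT lithium female 1 (adjusted p = 0.0524), without WT lithium male 1 (0.0543) and without the 9 libraries with a striatal score over 1 (0.0571). It was also lost in females alone (0.514) and in males alone (0.229).

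A few markers of other cell types were also called lower under lithium, and none of those given here was at 0 in every library. Of the 16606 genes tested 2.67% were called in either direction, 216 genes were called lower, and 49.7% had a change above 0. Of the mural markers 1 of 9 fell and 1 of 9 had a change above 0, with a median log2 change of -0.15, and their summed counts ran between 6640 and 9324 with a median of 8143 under lithium and between 6871 and 10331 with a median of 8879 under vehicle. Of the endothelial markers 1 of 13 fell and 2 of 13 had a change above 0, with a median of -0.070, and their sums ran between 9830 and 14015 with a median of 11248 under lithium and between 10257 and 14239 with a median of 12068 under vehicle. Microglial markers had 1 of 10 called, lower, and a median of -0.058. Newly formed oligodendrocyte, oligodendrocyte precursor and upper-layer neuron markers had 0 of 10 called each, with medians of -0.099, -0.063 and -0.087, and olfactory bulb markers had 0 of 10 called with a median of 0.26. With the endothelial score in the fit Ctnnb1 was at -0.24 ± 0.026 over both genotypes (limma adjusted p = 2.81e-08) and Apc at -0.15 ± 0.045 (0.0477). With the olfactory bulb score they were at -0.23 ± 0.026 (1.85e-07) and -0.19 ± 0.050 (0.0194). The part of the mural, microglial, oligodendrocyte-lineage and upper-layer neuron markers was not tested.

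Among 30 tested genes reported elsewhere as induced by Wnt signals and listed apart from the 8, 2 rose and 1 fell under lithium, where 2.67% of all genes were called. The list's median log2 change was -0.042 against -0.001 over all genes. It shares Fzd7, Lgr5 and Lgr6 with the receptor list, and Wif1, Notum and Apcdd1 with that of secreted inhibitors, so the counts per list overlap. Ccnd2, the paralog of Ccnd1, averaged 2774 ± 410 in HT lithium libraries (SD, n = 10) against 2542 ± 416 in HT vehicle libraries (SD, n = 10), and 3194 ± 328 in WT lithium libraries (SD, n = 8) against 2474 ± 293 in WT vehicle libraries (SD, n = 10). It rose by 0.25 ± 0.063 (limma adjusted p = 0.0214), in 15 of 18 libraries. Ptch1, the Hedgehog receptor, rose by 0.22 ± 0.063 (adjusted p = 0.0482), in 16 of 18 libraries, but lost its call, with adjusted p up to 0.0935, on leaving out any of 27 of the 38 libraries compared. Dact2, a Dishevelled-binding protein, fell by 0.27 ± 0.067 (adjusted p = 0.0221), in 16 of 18. Of 16 tested ligands only Wnt10a was called, higher by 0.33 ± 0.085 (adjusted p = 0.0249), in 15 of 18 libraries, and its call was lost without WT lithium female 2 (adjusted p = 0.0509). In females alone the calls of Ccnd2, Ptch1, Dact2 and Wnt10a were lost (limma adjusted p = 0.202, 0.264, 0.275 and 0.286). They were also lost in males alone (0.504, 0.628, 0.425 and 0.464). No receptor or secreted inhibitor was called, of 21 and 13 tested. Besides Ctnnb1 no other of the 19 tested TCF cofactors passed, and of the 11 tested genes of Dishevelled and the destruction complex only Apc did.

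Under fluoxetine Ccnd1 fell, and it was the only gene of the 8 to pass. It averaged 1296 ± 115 normalised reads under fluoxetine (SD, n = 20) and 1440 ± 153 under vehicle (SD, n = 20). The change over both genotypes was -0.15 ± 0.040 on the log2 scale, or 0.902-fold with a 95% interval of 0.853 to 0.954 (limma adjusted p = 0.0314), and 18 of 20 fluoxetine libraries lay below the vehicle mean of their sex and genotype. Thus 1 of 8 genes was called, where 2.55% of all genes were called in either direction and 1.45% were lower. The fluoxetine and lithium comparisons share the same vehicle libraries.

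By library, Ccnd1 in HT females had 1223.7, 1423.5, 1378.2, 1430.3 and 1281.3 normalised reads under fluoxetine, against 1274.0, 1444.2, 1520.5, 1375.3 and 1476.0 under vehicle. In HT males it had 1239.4, 1236.9, 1198.5, 1233.8 and 1217.6 under fluoxetine, against 1340.1, 1510.3, 1473.0, 1293.1 and 1107.4 under vehicle. The HT males under fluoxetine were tightly grouped and lay below all vehicle males but the fifth. In WT females the values were 1466.9, 1319.3, 1272.7, 1301.3 and 1505.0 under fluoxetine and 1354.6, 1529.7, 1671.8, 1642.5 and 1439.9 under vehicle. In WT males they were 1340.8, 1437.5, 1075.2, 1209.4 and 1136.0 under fluoxetine and 1364.8, 1263.1, 1581.5, 1740.4 and 1391.7 under vehicle. The ranges of fluoxetine and vehicle libraries overlapped in each of the 4 groups of sex and genotype. In WT alone, where 0.367% of genes were called, the change was -0.20 ± 0.057 (limma adjusted p = 0.0858), with 10 of 10 libraries below the vehicle mean. It passed there without WT fluoxetine male 1 (adjusted p = 0.0388) and with DESeq2 (0.0421). In HT alone it was -0.10 ± 0.057 (adjusted p = 0.602). Of the 8 genes 1 had an unadjusted p under 0.05 in WT and 3 in HT (Lef1, Axin2 and Znrf3), against 13.4% and 9.19% of all genes. In HT 0 of 8 were called by limma, edgeR or DESeq2, and limma called 0% of all genes. The difference between the genotypes, HT minus WT, was 0.098 ± 0.080 (adjusted p = 0.968).

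The call of Ccnd1 under fluoxetine was close to the threshold. It was lost, at an adjusted p of 0.0503 to 0.057, without any of 8 single libraries: HT fluoxetine female 1 or 5, HT vehicle female 5 or male 3, WT fluoxetine female 3, male 3 or male 5, and WT vehicle male 3. The log2 change without a single library stayed between -0.17 and -0.13. Endothelial and mural markers moved with it: 3 of 13 endothelial and 3 of 9 mural markers fell, their median log2 changes were -0.094 and -0.13, and none of these 22 markers was at 0 in every library. Over all genes 1.45% were called lower and 2.55% in either direction, the median change was 0.002, and 50.9% lay above 0. Summed endothelial counts ran between 10304 and 14687 with a median of 11386 under fluoxetine and between 10257 and 14239 with a median of 12068 under vehicle. Summed mural counts ran between 6399 and 10191 with a median of 7888 under fluoxetine and between 6871 and 10331 with a median of 8879 under vehicle. With the endothelial score in the fit the change of Ccnd1 was -0.12 ± 0.037 (adjusted p = 0.0655). Of the upper-layer neuron markers 2 of 10 fell and 1 of 10 had a change above 0, with a median of -0.10, and none was at 0 in every library. Their summed counts ran between 20608 and 29179 with a median of 26319 under fluoxetine and between 23222 and 32976 with a median of 27306 under vehicle. Of the deep-layer neuron markers 1 of 10 rose, and the list's median was -0.056. The mean score of newly formed oligodendrocyte markers was -0.14 under fluoxetine and 0.24 under vehicle, beside -0.12 and 0.25 for endothelial markers. That of oligodendrocyte precursors was -0.01 and 0.17, and that of mature oligodendrocytes -0.03 and 0.01. The part of the mural and oligodendrocyte-lineage markers and of these neuron markers in the result was not tested.

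The other 7 genes were not called under fluoxetine. Lef1 had the largest change, -0.20 ± 0.079 over both genotypes (limma adjusted p = 0.162). In HT females Lef1 had 102.7, 166.1, 160.4, 156.6 and 122.2 normalised reads under fluoxetine, against 126.0, 184.4, 175.0, 139.3 and 224.8 under vehicle. In HT males it had 154.5, 97.1, 117.7, 94.8 and 107.7 under fluoxetine and 156.8, 170.3, 179.7, 154.9 and 122.3 under vehicle. All 10 HT fluoxetine libraries lay below the vehicle mean of their sex, although the ranges overlapped, and the change in HT was -0.36 ± 0.11 (limma adjusted p = 0.266). In WT Lef1 averaged 131.1 ± 24.6 under fluoxetine and 133.7 ± 16.5 under vehicle (SD, n = 10 each), and its change was -0.040 ± 0.11. The difference of these effects, HT minus WT, was -0.32 ± 0.16 (limma adjusted p = 0.964). The larger size in HT was therefore not shown to differ from that in WT.

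Znrf3 was higher by 0.058 ± 0.026 under fluoxetine (limma adjusted p = 0.222), in 14 of 20 libraries, and Rnf43 by 0.11 ± 0.083 (adjusted p = 0.524), in 15 of 20. Nkd1 was lower by 0.068 ± 0.061 in 16 of 20 libraries, Axin2 by 0.049 ± 0.035 in 14 of 20 and Tcf7l2 by 0.15 ± 0.11 in 12 of 20. Tcf7l1 differed by 0.012 ± 0.076. Over the 8 genes the median log2 change was -0.058, against 0.002 for all genes, and 3 of 8 had an unadjusted p under 0.05 (Ccnd1, Lef1 and Znrf3), against 17.4% of all genes. Of the other pathway lists only the Wnt-induced genes held a call, the glucose transporter Slc2a1, which rose by 0.30 ± 0.059 (limma adjusted p = 0.00494) in 19 of 20 libraries and which is also abundant in brain endothelium. The call of Slc2a1 was lost in females alone (limma adjusted p = 0.128) and in males alone (0.142).

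**Figure D3:**
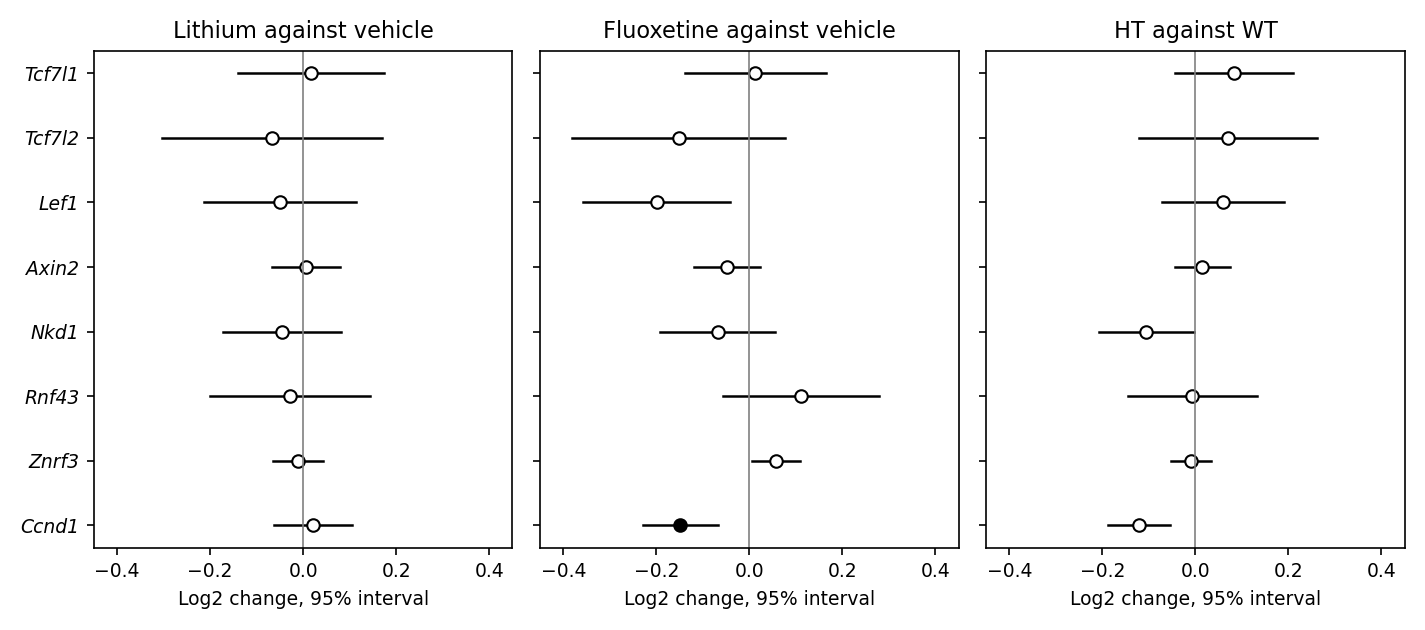
Log2 change of each gene with its 95% interval for lithium against vehicle, fluoxetine against vehicle (each over both genotypes) and HT against WT (over the 3 treatments), from limma. The filled point passed the adjusted threshold (Ccnd1 under fluoxetine, -0.15) and open points did not, and all lithium points lie within 0.07 of 0.

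Between the genotypes none of the 8 genes was called, and Ccnd1 came nearest. Its normalised read count was 1338 ± 121 in HT libraries (SD, n = 30) and 1452 ± 178 in WT libraries (SD, n = 28). Averaged over the 3 treatments the change was -0.12 ± 0.033 on the log2 scale, or 0.920-fold with a 95% interval of 0.878 to 0.963 (limma adjusted p = 0.0558), and 25 of 30 HT libraries lay below the WT mean of their sex and drug. So 0 of 8 genes were called by limma, where 1.07% of all genes were, and 2 of 8 (Ccnd1 and Nkd1) had an unadjusted p under 0.05, against 15.2% of all genes. On the recovered reads Ccnd1 passed with edgeR's quasi-likelihood test (adjusted p = 0.0497) and with DESeq2 (adjusted p = 0.0231). With limma it also passed when any of 8 single libraries was left out, at adjusted p between 0.037 and 0.0488: HT lithium female 2, HT vehicle female 3, HT vehicle males 2 and 3, WT fluoxetine male 3, WT vehicle female 1 and WT vehicle males 1 and 2.

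The genotype difference of Ccnd1 was largest under lithium. HT lithium females had 1211.3, 1522.7, 1438.1, 1477.6 and 1455.6 normalised reads, against 1597.7, 1553.3, 1436.1 and 1778.8 in WT lithium females. HT lithium males had 1301.5, 1113.4, 1341.7, 1343.8 and 1264.0, against 1449.9, 1618.4, 1678.7 and 1498.6 in WT lithium males. All HT males lay below all WT males, while the females overlapped. The change under lithium was -0.23 ± 0.060 (limma adjusted p = 0.407), with 10 of 10 HT libraries below the WT mean of their sex, in a comparison where 0.012% of genes were called. It was -0.12 ± 0.057 under vehicle (adjusted p = 0.857) and -0.018 ± 0.057 under fluoxetine (adjusted p = 0.903), where 0.0181% and 0.994% of genes were called. The 165 genes behind the last share became 26 without WT fluoxetine male 5 and 1109 without WT fluoxetine male 1. Under lithium, vehicle and fluoxetine 0 of 8 genes were called by limma, edgeR or DESeq2, and 2, 2 and 0 of them had an unadjusted p under 0.05, against 5.34%, 5.76% and 18.3% of all genes. The difference of the lithium effect between genotypes, HT minus WT, was -0.11 ± 0.083 (adjusted p = 0.998), so the size of the genotype difference was not shown to depend on lithium.

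Olfactory bulb genes lay lower in HT with none called, and within groups they varied with Ccnd1. Their summed counts ran between 6487 and 26524 with a median of 8567 in HT and between 6513 and 32537 with a median of 11744 in WT. All 10 markers of that list were lower in HT, by a median of 0.94 on the log2 scale, 0 of 10 were called, and none was at 0 in every library. Within groups Ccnd1 was lower where these markers were higher, with Pearson r = -0.485 between deviations from group means over the 58 libraries. With the olfactory bulb score in the fit, the change of Ccnd1 in HT was -0.16 ± 0.031 over the 3 treatments (limma adjusted p = 0.00274) and -0.28 ± 0.055 under lithium (adjusted p = 0.0241).

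**Figure D4:**
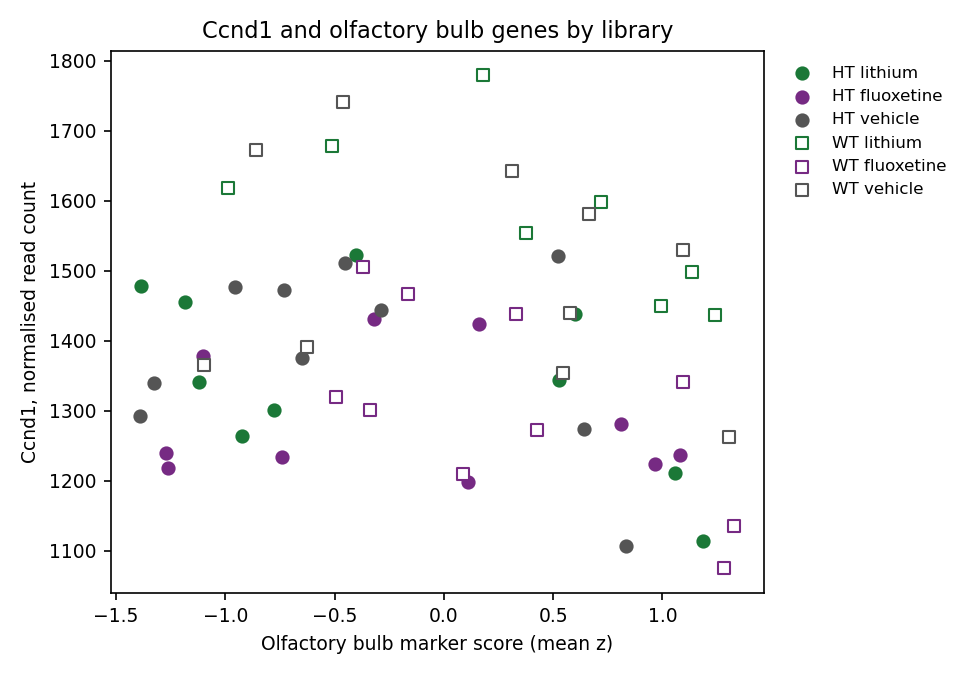
Normalised read count of Ccnd1 against the olfactory bulb marker score (mean z value of 10 genes over all libraries), 1 point per library, HT filled and WT open, coloured by drug. At a given score WT lithium and WT vehicle points lie mostly above the HT points, and the lowest Ccnd1 values lie at high scores.

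The feedback inhibitors and transcription factors differed less between genotypes. Nkd1 averaged 515.1 ± 71.3 in HT and 553.1 ± 78.1 in WT libraries, a log2 change of -0.11 ± 0.051 (limma adjusted p = 0.317), with 23 of 30 HT libraries below the WT mean. Axin2 averaged 758.7 ± 71.3 in HT and 749.1 ± 44.4 in WT, a change of 0.015 with a 95% interval of -0.044 to 0.074. Znrf3 averaged 487.3 ± 28.0 in HT and 491.5 ± 28.9 in WT, a change of -0.010 with an interval of -0.053 to 0.034. As folds these intervals were 0.970 to 1.053 for Axin2 and 0.964 to 1.024 for Znrf3. For Rnf43 the change was -0.007 (-0.15 to 0.13), for Tcf7l1 0.082 (-0.044 to 0.21), for Tcf7l2 0.070 (-0.12 to 0.26) and for Lef1 0.059 (-0.073 to 0.19). Under vehicle alone Lef1 was higher in HT, 163.4 ± 30.6 against 133.7 ± 16.5 in WT (SD, n = 10 each), by 0.27 ± 0.11 (limma adjusted p = 0.766), in 8 of 10 HT libraries. The median over the 8 genes was 0.004, against 0 for all genes.

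Some other pathway genes were called between the genotypes. Tbl1x, the X-linked paralog of Tbl1xr1 and here the only called gene of 19 tested TCF cofactors, rose in HT by 0.16 ± 0.018 over the 3 treatments (limma adjusted p = 1.25e-08), in 30 of 30 libraries. Frzb, a secreted Frizzled-related Wnt antagonist, averaged 768.3 ± 159.9 in HT vehicle libraries and 1081 ± 250 in WT vehicle libraries (SD, n = 10 each), and fell by 0.38 ± 0.088 over the 3 treatments (adjusted p = 0.0166), in 25 of 30 libraries. The receptor gene Fzd8 fell by 0.15 ± 0.036 (adjusted p = 0.0177), in 23 of 30 libraries. Under fluoxetine alone Fzd8 fell by 0.25 ± 0.060 (adjusted p = 0.0294). This call was lost, at adjusted p of 0.0517 to 0.106, without HT fluoxetine female 4 or male 1, or WT fluoxetine female 5, male 2 or male 5. It was also lost with limma's array weights (adjusted p = 0.061), with only the groups of the comparison in the fit (0.165) and with the thalamic score (0.0883). The same held in females alone (0.236), in males alone (0.226) and without the 9 libraries with a striatal score over 1 (0.129). Prickle1, a planar polarity gene kept in the list of Wnt-induced genes, rose by 0.12 ± 0.029 (adjusted p = 0.0192), in 25 of 30 libraries. The calls of Frzb, Fzd8 and Prickle1 over the 3 treatments were lost in females alone (limma adjusted p = 0.479, 0.185 and 0.324). They were also lost in males alone (0.177, 0.53 and 0.384). With the olfactory bulb score in the fit Frzb, Fzd8 and Prickle1 were at -0.22, -0.13 and 0.086 (adjusted p = 0.113, 0.112 and 0.141), and without the 9 libraries with a striatal score over 1 at -0.35, -0.14 and 0.10 (adjusted p = 0.101, 0.119 and 0.137). Fzd8 and Prickle1 also missed the threshold with the thalamic score (adjusted p = 0.0513 and 0.0523). Of the 13 genes of the thalamic list 11 were in the table. It shares Calb2 with the olfactory bulb list, so these scores are not independent. Marker lists also share genes with the pathway lists. Cldn5 of the endothelial list and Sp8 of the olfactory bulb list are also in the list of Wnt-induced genes. Tle4 is both a TCF cofactor and a deep-layer neuron marker. The lists of oligodendrocyte precursors and newly formed oligodendrocytes share Gpr17. Against 1.07% of all genes, of the pathway lists 1 of 21 receptors, 1 of 13 secreted inhibitors and 1 of 30 Wnt-induced genes were called, and 0 of 16 ligands and 0 of 11 genes of Dishevelled and the destruction complex.

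Sex made little difference that could be called. Ccnd1 averaged 1441 ± 134 in females and 1345 ± 172 in males (SD, n = 29 each), a log2 change of 0.10 ± 0.033 (limma adjusted p = 0.524), with 22 of 29 females above the male mean of their group. None of the 8 genes was called, where 0.114% of all genes were, and the same count of 0 of 8 came from edgeR and DESeq2, with 1 of 8 at an unadjusted p under 0.05, against 7.56% of all genes. Endothelial markers were higher in females in 12 of 13 cases with 0 called, by a median of 0.064, where 49.9% of all genes were higher. The sex difference of Ccnd1 with the endothelial score in the fit is not reported here. The other 7 lay between -0.038 for Znrf3 and 0.066 for Tcf7l1. In the 5 tests of whether a drug or genotype effect differed between genotypes or sexes, 0 of 40 tests of the 8 genes were called by limma, edgeR or DESeq2, and limma called 0% of all genes in each of the 5. At an unadjusted p under 0.05 there were 3 of 40: Lef1 in the HT minus WT difference of the fluoxetine effect and of the lithium effect, and Znrf3 in the female minus male difference of the genotype effect (-0.096 ± 0.043). Of all genes 4.78%, 3.67% and 4.73% passed that mark in these 3 comparisons, and 1.58% and 6.44% in the female minus male differences of the lithium and fluoxetine effects.

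Within groups the 8 genes did not vary as a block. Pearson r between deviations from group means over the 58 libraries, which share library preparation and dissection, was 0.535 for Lef1 and Nkd1, 0.513 for Axin2 and Nkd1, and 0.501 for Nkd1 and Ccnd1. It was 0.496 for Tcf7l2 and Lef1, and 0.116 for Axin2 and Ccnd1. Znrf3 had r between -0.106 and 0.156 to the other 7. Its SD within groups was only 5.0% of its mean, on 358 to 613 reads, and counting error pulls r towards 0. How far that accounts for its low r was not tested.

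The genes differed in the marker list they followed most closely, and all but Znrf3 followed several lists. Nkd1 and Lef1 had their highest r with the endothelial score, 0.771 and 0.616, and Tcf7l2 with that of oligodendrocyte precursors, 0.696. Nkd1 also had 0.635 with the mural score, 0.622 with that of oligodendrocyte precursors and 0.587 with that of astrocytes. Lef1 also had 0.578 with the astrocyte score and 0.502 with that of mature oligodendrocytes. Tcf7l2 also had 0.624 with the astrocyte score and 0.415 with the endothelial score, but 0.058 with the thalamic and habenular score. Tcf7l1 had 0.437 with the score of proliferating cells and 0.418 with that of oligodendrocyte precursors. Axin2 had 0.478 with the endothelial score and Ccnd1 0.471. Rnf43 and Ccnd1 had -0.527 and -0.485 with the olfactory bulb score. Znrf3, whose small spread limits any r, was at most 0.255 with any of the 15 lists. With the endothelial score in the fit, the lithium change of Lef1 was 0.039 and that of Nkd1 0.043, and the fluoxetine change of Nkd1 was 0.014, against -0.050, -0.045 and -0.068 without it, and none of these was called.

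**Figure D5:**
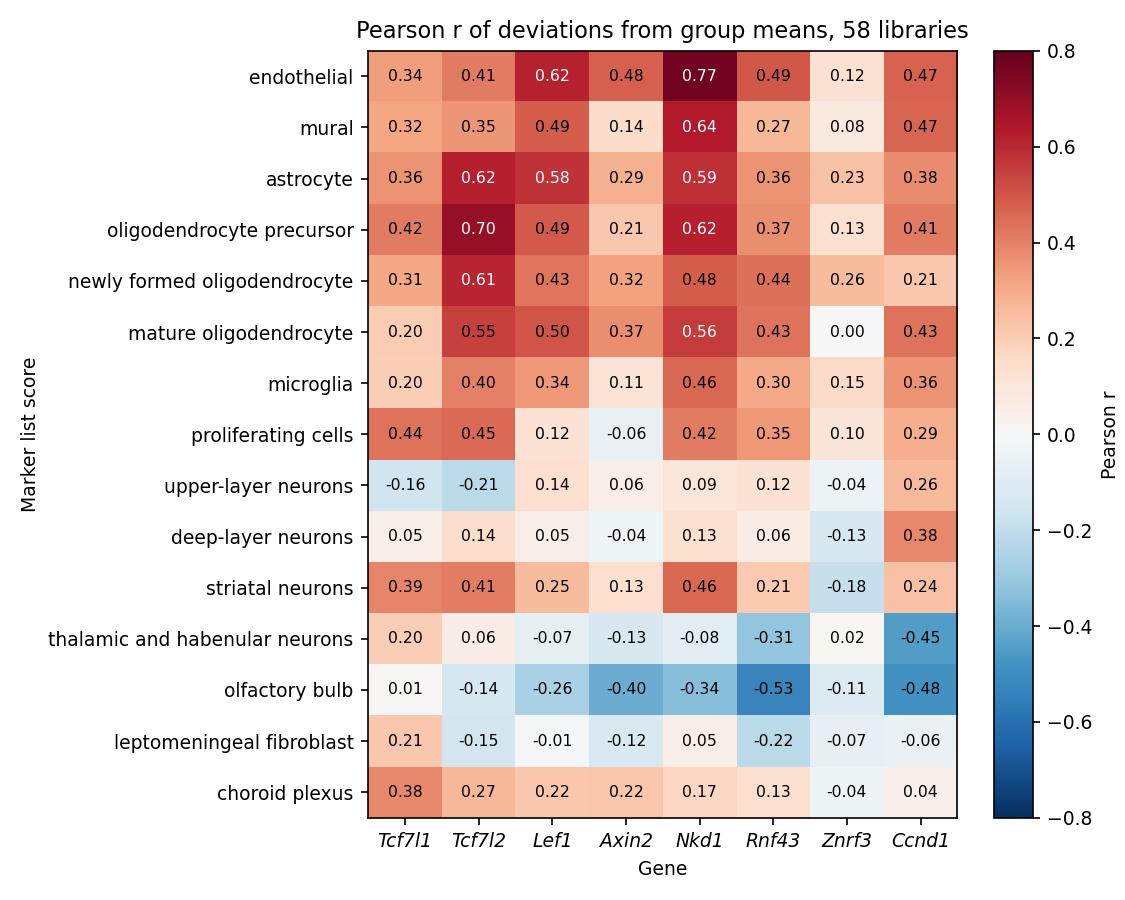
Pearson r between each gene and the score of each of 15 marker lists, as deviations from group means over 58 libraries (red positive, blue negative). Nkd1 and Lef1 are reddest in the endothelial row, Tcf7l2 in the row of oligodendrocyte precursors, and the Znrf3 column is pale throughout.

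The genes whose values went most closely with each of the 8 by Pearson r over the 58 libraries, were looked up in the 13696 genes that averaged 50 or more normalised reads. Lef1 went with Flt1 (r = 0.739), a VEGF receptor of endothelium, Ushbp1 (0.715) and Abcc9 (0.708), a potassium channel subunit found in pericytes. Nkd1 went with Arap3 (0.777), Vwa1 (0.776) and Cdc42ep1 (0.739), and these 3 were also the first 3 by Spearman's rho. Tcf7l2 went with Gatm (0.723), an enzyme of creatine synthesis, the formin gene Daam2 (0.697) and Tns3 (0.691). Axin2 went with the creatine transporter Slc6a8 (0.701), the growth factor Vegfa (0.680) and the kinase gene Prkd2 (0.657). Ccnd1 went with Dact3 (0.742), a Dishevelled-binding protein, the pannexin Panx2 (0.736) and Ddn (0.717), which encodes the postsynaptic protein dendrin. For Rnf43 the first were Ssh3 (0.640), Mtm1 (0.625) and Slc22a23 (0.610), and for Tcf7l1 Prdm16 (0.558) and Tmsb10 (0.555). The weakest likeness was that of Znrf3, with Akap13 (0.543), Soat1 (0.521) and Pfas (0.517), none of which was among its first 3 by Spearman's rho. The small spread of Znrf3 limits these values too. For Lef1, Rnf43 and Ccnd1 2 of the first 3 by Pearson r were also among the first 3 by Spearman's rho. For Axin2, Tcf7l2 and Tcf7l1 only 1 of 3 was.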

How the data were processed

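The deposited table holds a linear signal: reads per gene, each library divided by a single size factor by the authors. The tools named in the submitters' processing notes are DESeq2 1.19.11, Salmon 0.11.2 and R 3.6.0, and the build is GRCm38. Libraries were made with a stranded TruSeq mRNA kit, per the labels' protocols. Multiplied back, 100% of values gave whole reads (tolerance 0.0001), and size factors ran from 0.79 to 1.23. Gene names came from GENCODE M21, which matched 18077 of 18088 IDs.

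Tests used log2(value + 1) and limma 3.58.1 under R 4.3.3 with its trend option (adding 1 understates changes of low genes), for 16606 genes with a mean of at least 10. A single model of 12 group means was fitted to 58 libraries, with 46 residual degrees of freedom and Benjamini-Hochberg adjustment over all genes at 0.05. Each comparison weights the sexes equally. Alternatives were edgeR 4.0.16 and DESeq2 1.42.0 on recovered reads, other pseudocounts, minimum means and scalings, marker scores as covariates, each sex alone, and each library left out. The test was checked on simulated data. The named genes are the 8 members, Tbl1xr1, called pathway genes, and the 3 genes most like each member, of which 1 is not reported here. The members, gene lists and marker lists were chosen with earlier results of these data known. A marker score is the mean z value of a list's genes.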

Additional observations from a re-analysis of the deposited data

Results flagged for a closer look

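In 7 of 96 pairs of a gene and a group, 1 library stood far from the others of its group, and chance gives about 5% of such pairs. Tcf7l2 had 153.6 normalised reads in HT fluoxetine female 4, against 104.1 to 117.7 in the other 4 libraries. Lef1 had 165.0 in WT vehicle female 4, 1 of the 2 choroid plexus-rich libraries, against 117.5 to 124.8. Axin2 had 870.7 in HT fluoxetine female 3, against 665.5 to 711.8, and 728.5 in WT lithium female 4, which was low against 762.1 to 766.0. Axin2 also had 841.0 in WT vehicle male 1, against 729.9 to 758.7. Nkd1 had 793.9 in WT fluoxetine female 1, against 479.3 to 522.1, and that library had the highest summed endothelial count, 14687. Ccnd1 had 1211.3 in HT lithium female 1, against 1438.1 to 1522.7, and the summed olfactory bulb count there was 21565. HT fluoxetine female 4, WT vehicle female 4 and WT fluoxetine female 1 were also among the 9 libraries with a striatal score over 1. Within groups Tcf7l2, Lef1 and Nkd1 had Pearson r of 0.412, 0.25 and 0.462 with that score. What set these libraries apart was not tested.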

How the results depend on the processing

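The count of called genes among the 8 was 0 under lithium with every alternative run. Under fluoxetine over both genotypes it was 1, and it was 0 with the endothelial score in the fit, in females alone, in males alone and without the 9 libraries with a striatal score over 1, where Ccnd1 gave -0.12, -0.11, -0.18 and -0.12 (limma adjusted p = 0.0655, 0.414, 0.18 and 0.12). Leaving out 1 library gave counts from 0 to 1. In WT alone the count was 0, and 1 with array weights, with the thalamic and habenular score, with DESeq2 (adjusted p = 0.0103, 0.0445 and 0.0421) or without WT fluoxetine male 1 (0.0388). For HT against WT over the 3 treatments it was 0, and 1 with TMM, with the endothelial, thalamic or olfactory bulb score, with the GC trend removed, with edgeR and with DESeq2 (lowest adjusted p 0.00274), and from 0 to 1 with 1 library left out. Under lithium HT against WT was 1 with the olfactory bulb score. The cause was not tested. The exclusion of the striatal and choroid plexus libraries was chosen after seeing the data.

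Direction changed only for values that were not called, and a value called in neither fit that changed sign while moving by less than the standard error of the reported fit is not listed. In females alone the log2 changes were -0.099 for Rnf43 under vehicle, 0.096 for Lef1 under fluoxetine, and -0.26 for Tcf7l1 and 0.10 for Lef1 under lithium, all HT against WT. They were 0.008 for Axin2 under fluoxetine, 0.021 for Znrf3 under lithium and 0.10 for Tcf7l2 in the difference of the fluoxetine effect. In males alone HT against WT gave 0.001 for Znrf3 under vehicle and -0.22 for Tcf7l2, 0.11 for Rnf43 and 0.071 for Znrf3 under fluoxetine. Over the 3 treatments it gave -0.068 for Lef1, 0.13 for Rnf43 and 0.039 for Znrf3. Males alone also gave 0.087 for Tcf7l1 under fluoxetine in HT, and 0.11 for Tcf7l2, -0.052 for Axin2 and -0.007 for Znrf3 in WT. Tcf7l1 under lithium gave 0.11 in HT, -0.15 in WT and 0.26 for their difference. With the endothelial score Nkd1 under fluoxetine was 0.014, and under lithium Lef1 was 0.039 and Nkd1 0.043. Without the striatal-rich libraries the female minus male differences were -0.010 for Tcf7l1 and -0.013 for Lef1, and 0.15 for Rnf43 in the lithium effect.

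With the replicate number as a block Ccnd1 was -0.15 under fluoxetine (limma adjusted p = 0.0315) and -0.12 in HT (0.0657), and no count of called genes among the 8 changed. The numbers did not pair libraries: the median correlation of deviations was 0.002 for pairs of libraries with the same number and -0.004 for other pairs, and in 8 of 58 libraries the own number had the highest mean correlation. Over all genes, counts of calls moved by more than 1.5 times: 423 under fluoxetine ran from 4 in females alone to 886 with array weights, 443 under lithium from 0 in females alone to 1058 with array weights, and for HT against WT the count of 177 had extremes of 7 (males alone) and 369 (array weights). With 1 library left out these ran from 225 to 719, from 256 to 574 and from 115 to 299. The 165 genes of HT against WT under fluoxetine had extremes of 5 (males alone) and 593 (array weights) besides those given above. With 1 library left out, 61 genes under fluoxetine in WT ran from 18 to 347, 64 under lithium in HT from 25 to 84, 5 under lithium in WT from 0 to 44 and 0 under fluoxetine in HT from 0 to 2, and with the other settings from 0 to 859, 278, 284 and 18. Tcf7l2, Rnf43, Lef1 and Tcf7l1, with the fewest reads, have the least precise values.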
